A study of Homo sapiens with 9 samples.

Results

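The genes described here were 43 autophagy and lysosome genes, taken by gene symbol from a table of 24204 genes measured by RNA-seq in HepG2, a human liver cancer cell line. They were chosen for their known roles: the core machinery that builds autophagosomes, the receptors that load cargo into them, lysosomal proteins, and the kinase MTOR with its partner RPTOR. All 43 symbols were found, and 40 passed the filter on low values (FPKM, that is fragments scaled to gene length and to the mapped fragments of the library, of at least 1 in at least 3 libraries), among 11265 genes that did so in all. The study asked what depletion of TRIB3, a pseudokinase induced when amino acids run short, does to these cells. There were 9 libraries in 3 groups of 3: HepG2 infected with a lentivirus carrying a control hairpin (shCtrl), and HepG2 infected with a lentivirus carrying either of 2 hairpins against TRIB3 (shTRIB3-1 and shTRIB3-2). All 3 groups had 48 h of infection and then 48 h of puromycin selection, so the control cells carried a virus and went through the drug as well. The labels give high-glucose DMEM with serum for all groups, whereas the study's methods describe RNA-seq of glutamine-deprived HepG2. That methods passage also covers a separate glutamine withdrawal series, and the paper's discussion speaks of TRIB3 depletion without glutamine deprivation. The medium at harvest of these libraries thus remains uncertain. This matters for the genes below, because autophagy genes respond to amino acid supply.

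TRIB3 itself read 67.9, 65.8 and 66.6 FPKM in shCtrl, 34.1, 32.7 and 34 in shTRIB3-1 and 20.6, 20.7 and 20.4 in shTRIB3-2, so 50.3% and 30.8% of the control mean remained. The liver origin was visible in the hepatocyte markers, with ALB at 4929 to 6715 FPKM in the 9 libraries, while the leukocyte gene PTPRC and the fibroblast gene COL3A1 held no more than 2 fragments in any library. Depth was even, at 34206726 to 36311029 fragments per library. Mitochondrial transcripts took 5.295% to 6.103% of fragments in shCtrl and 6.286% to 7.224% in the 6 TRIB3 hairpin libraries, and the part of this difference in the results below was not tested. Nothing in the labels says that the 3 libraries of a group came from separate cultures, so the p-values measure the spread between libraries, which may be technical. In bulk RNA, fewer cells of a kind and less RNA per cell cannot be told apart.

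Autophagy encloses cytoplasm in a double membrane that then fuses with the lysosome. The ULK1 kinase complex starts the process, a lipid kinase complex built on PIK3C3 and BECN1 marks the site, and a pair of ubiquitin-like conjugation systems attach ATG8 family proteins to the growing membrane, where cargo receptors such as SQSTM1 dock. MTORC1 restrains ULK1 when amino acids are plentiful, and TFEB, a transcription factor that MTORC1 keeps out of the nucleus, activates many lysosomal genes through E-box elements.

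Promoter sequence was read for the members because transcription factors of nutrient and oxidative stress are known to act on several of them. The letters searched on both strands were CACGTG (the E-box core bound by TFEB and its relatives), the same E-box preceded by GT and followed by AC (the extended lysosomal element), TGACNNNGC (the antioxidant response element bound by NRF2) and TGATGNAA (the element bound by ATF4 with a C/EBP partner). A window upstream of a RefSeq start was found for 37 of the 43 members (not for MAP1LC3A, ATG4D, RB1CC1, CTSB, UVRAG and LAMP2) and for 27305 genes in all. The E-box was present in 4 members (10.8%, against 7.73% of all genes), the antioxidant element in 6 (16.2%, against 13.2%), and the extended lysosomal element and the ATF4 element in 0 members (against 0.374% and 3.89%). The 4 members with the E-box were LAMP1, CTSD, ATG3 and ATG14, and the 6 with the antioxidant element were LAMP1, CTSD, CTSL, MAP1LC3B, CALCOCO2 and ATG101. Both shares were near those of all genes, and a match is a stretch of letters, not a shown binding site. LAMP1 stood out among members with 5 E-boxes in its window, 1 of which overlapped the antioxidant element.

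The windows of 5 members that the results turn on are printed below in GRCh38.p14 (RefSeq), from the 5′ end to the base before the start of the transcript, with matches to any of the 4 motifs in capitals. LAMP1 (chr13:113296989-113297238, plus strand) and CTSD (chr11:1763928-1764177, minus strand) were the lysosomal members with E-boxes among the 3 searched, CTSL (chr9:87725869-87726118, plus strand) was the lysosomal member with the largest difference, and SQSTM1 (chr5:179806143-179806392, plus strand) and OPTN (chr10:13099832-13100081, plus strand) were cargo receptors whose windows held none of the 4.
LAMP1: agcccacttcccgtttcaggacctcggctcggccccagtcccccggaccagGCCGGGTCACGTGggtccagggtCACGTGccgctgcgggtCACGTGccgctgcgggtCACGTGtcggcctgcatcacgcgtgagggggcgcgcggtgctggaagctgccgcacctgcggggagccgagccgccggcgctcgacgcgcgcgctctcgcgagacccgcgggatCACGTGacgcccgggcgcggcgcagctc
CTSD: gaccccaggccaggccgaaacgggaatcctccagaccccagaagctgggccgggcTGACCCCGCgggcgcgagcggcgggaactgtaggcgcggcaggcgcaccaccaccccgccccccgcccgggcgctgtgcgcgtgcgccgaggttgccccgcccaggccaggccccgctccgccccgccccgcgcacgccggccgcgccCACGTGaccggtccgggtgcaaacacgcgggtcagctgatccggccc
CTSL: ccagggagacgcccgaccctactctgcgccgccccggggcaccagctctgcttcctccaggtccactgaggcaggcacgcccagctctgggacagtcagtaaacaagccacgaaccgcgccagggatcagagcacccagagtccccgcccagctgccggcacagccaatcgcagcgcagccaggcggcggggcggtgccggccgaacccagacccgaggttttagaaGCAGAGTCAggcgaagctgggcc
SQSTM1: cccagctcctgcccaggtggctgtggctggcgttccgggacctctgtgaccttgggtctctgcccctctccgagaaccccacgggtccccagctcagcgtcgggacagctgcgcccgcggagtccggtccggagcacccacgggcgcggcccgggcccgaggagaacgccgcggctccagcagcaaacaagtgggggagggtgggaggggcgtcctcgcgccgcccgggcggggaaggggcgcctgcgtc
OPTN: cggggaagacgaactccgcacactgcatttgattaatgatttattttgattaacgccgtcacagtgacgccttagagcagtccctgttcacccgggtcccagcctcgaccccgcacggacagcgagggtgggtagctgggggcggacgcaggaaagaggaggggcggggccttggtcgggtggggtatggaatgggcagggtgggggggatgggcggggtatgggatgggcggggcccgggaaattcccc

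Against shCtrl, most of the autophagy and lysosome genes were higher with either hairpin, by small amounts. With shTRIB3-1, 25 of 40 tested members rose, 9 fell and 6 did not pass the test (limma on log2 of FPKM + 0.1, adjusted p under 0.05 over all genes tested), while 32.9% of all genes rose and 41.5% fell. With shTRIB3-2, 23 rose, 9 fell and 8 did not pass, against 35.4% and 40.5% of all genes. The median log2 fold change of the members was 0.28 with shTRIB3-1 and 0.27 with shTRIB3-2, beside -0.056 and -0.035 over all genes tested. Both comparisons used the same 3 control libraries, so the second is not independent of the first. The library medians of shTRIB3-1 and shTRIB3-2 differed from those of shCtrl by -0.08 and -0.051 on the log2 scale. When each library was centred on its own median, which removed these differences, the split with shTRIB3-1 was 28 rising and 5 falling.

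Differences above a log2 fold change of 1 were few. OPTN, CTSL, ULK1, ATG16L1 and SQSTM1 passed that threshold with shTRIB3-1 (5 of 40, 12.5%), where 5.39% of all genes were called higher, and OPTN, CTSL and ATG16L1 did so with shTRIB3-2 (3 of 40, 7.5%), where the share of all genes was 6.06%. No member was called lower with either hairpin, against 6.1% of all genes with shTRIB3-1 and 6.27% with shTRIB3-2. The count with shTRIB3-2 was thus near the background. In GENCODE 44 (GRCh38) the 5 called genes, all protein-coding, are OPTN at chr10:13099449-13138308 (plus strand), CTSL at chr9:87724051-87731469 (plus strand), ATG16L1 at chr2:233210051-233295674 (plus strand), ULK1 at chr12:131894622-131923150 (plus strand) and SQSTM1 at chr5:179806398-179838078 (plus strand).

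**Figure D1:**
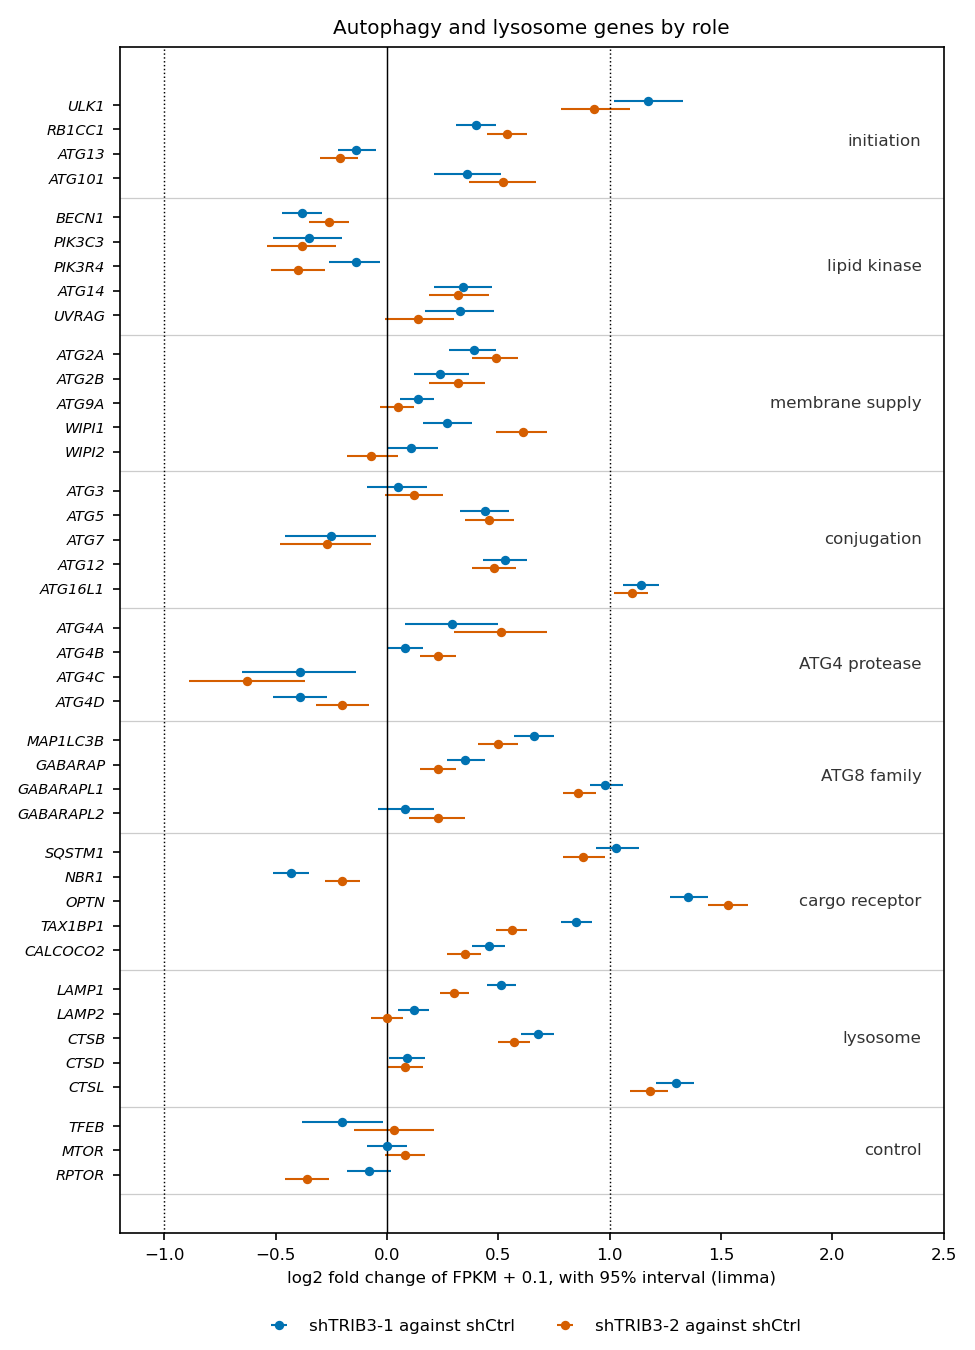
Log2 fold change of FPKM + 0.1 against shCtrl for the 40 tested members, grouped by role, with shTRIB3-1 in blue and shTRIB3-2 in orange; points are limma estimates (n = 3 libraries per group), bars are 95% intervals, and dotted lines mark a log2 fold change of 1 and -1. OPTN, CTSL and ATG16L1 lie to the right of the dotted line with both hairpins, and ATG13, BECN1, PIK3C3, PIK3R4, ATG7, ATG4C, ATG4D and NBR1 fell with both.

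The cargo receptors showed the widest range of any role, from OPTN to NBR1. OPTN, which links ubiquitin-tagged cargo and damaged mitochondria to ATG8 proteins, read 35.8, 34.8 and 32.5 FPKM in shCtrl, 87.8, 91.3 and 84.9 in shTRIB3-1 and 98.4, 102 and 97.7 in shTRIB3-2. The 3 groups did not overlap, and the log2 fold changes were 1.35 ± 0.041 and 1.53 ± 0.041 (SE, adjusted p = 4.85e-11 and 1.27e-11, limma), the largest of the 40 members. SQSTM1, the p62 receptor that binds ubiquitin and is itself degraded by autophagy, was the most abundant receptor and read 263, 248 and 239 FPKM in shCtrl, 499, 538 and 497 in shTRIB3-1 and 447, 471 and 464 in shTRIB3-2. Its log2 fold changes were 1.03 ± 0.043 and 0.88 ± 0.043, so it sat at the threshold of 1: with shTRIB3-1 the value was 0.98 when FPKM was rescaled to TPM and 0.92 under quantile normalization, and 1.00 without shTRIB3-1 replicate 2, which ended the call. Of the exon bases of SQSTM1, 22.4% overlap an antisense gene, and the strand setting of the counting is not stated.

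TAX1BP1, a receptor for protein aggregates and for damaged mitochondria, read 60.3, 56.7 and 57.6 FPKM in shCtrl, 102, 107 and 106 in shTRIB3-1 and 84.8, 86.3 and 87.2 in shTRIB3-2. It thus rose by 0.85 and 0.56 on the log2 scale, with 3 separate ranges, the milder hairpin for TRIB3 giving the higher level. CALCOCO2, the NDP52 receptor for intracellular bacteria and mitochondria, rose by 0.46 and 0.35. NBR1, a receptor related to SQSTM1, was the exception and fell with both hairpins, from 39.2 ± 0.637 FPKM in shCtrl to 29.2 ± 1.41 and 34.1 ± 0.158 (SD, n = 3 each; adjusted p = 4.73e-07 and 3.13e-04, limma). In the control cells NBR1 was above OPTN, and in both TRIB3 hairpin groups OPTN was above NBR1 by FPKM, which corrects for gene length.

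**Figure D2:**
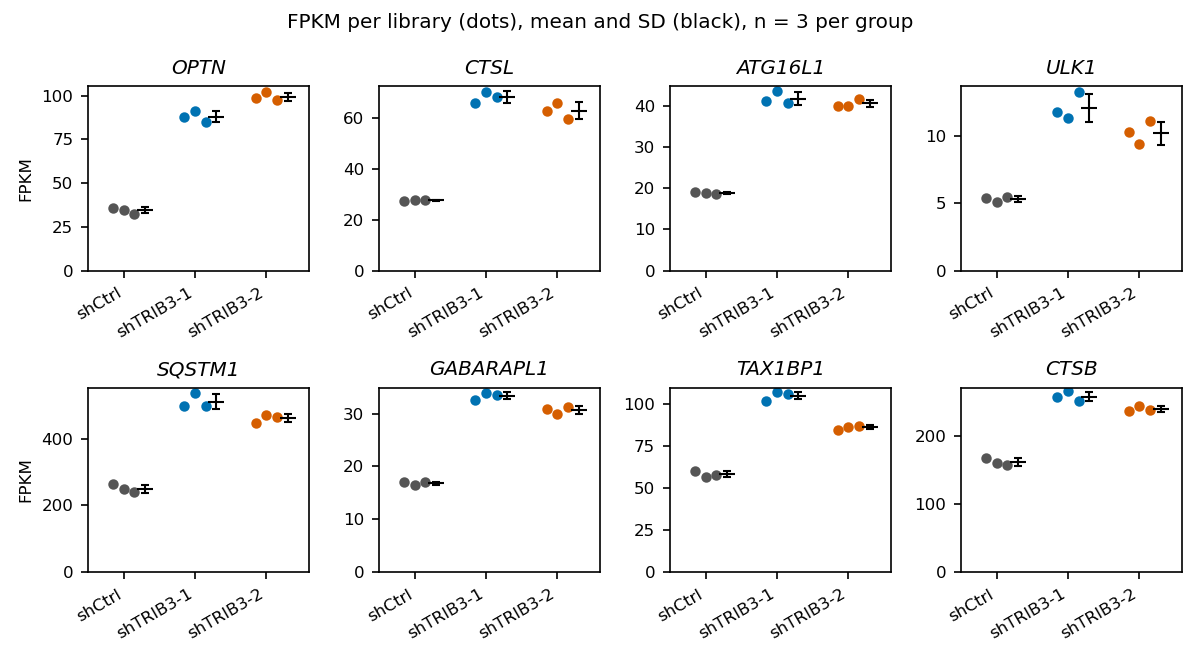
FPKM on an axis from 0 for 8 members in each of the 9 libraries (dots), with the group mean and SD in black (n = 3 per group). The libraries of both TRIB3 hairpins lie above all 3 shCtrl libraries in every panel, and the hairpins also lie apart in every panel but CTSL and ATG16L1, with shTRIB3-2 the higher for OPTN and the lower for the others.

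The ATG8 family, the ubiquitin-like proteins that coat the autophagosome, rose unevenly. GABARAPL1 read 17, 16.4 and 17 FPKM in shCtrl, 32.6, 33.9 and 33.5 in shTRIB3-1 and 30.8, 29.9 and 31.3 in shTRIB3-2, with log2 fold changes of 0.98 and 0.86. MAP1LC3B, the LC3 gene whose lipidated protein is the usual gauge of autophagosomes, read 58.3, 59.7 and 56.2 FPKM in shCtrl, 89.2, 97 and 89.2 in shTRIB3-1 and 79.5, 83.5 and 83.4 in shTRIB3-2, with log2 fold changes of 0.66 and 0.50. MAP1LC3B has a near-identical relative, MAP1LC3B2, which rose by 1.16 and 0.76 from 4.2 to 4.75 FPKM in shCtrl, so reads may have been divided between them and both values are uncertain.

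GABARAP, the most abundant family member, read 114, 109 and 106 FPKM in shCtrl, 144, 143 and 135 in shTRIB3-1 and 126, 133 and 128 in shTRIB3-2, a rise of 0.35 and 0.23 on the log2 scale. GABARAP shares 35.4% of its exon bases with a gene on the same strand and 12.8% with an antisense gene, so its level is uncertain. GABARAPL2 read 37.5, 44.6 and 45.2 FPKM in shCtrl, 44.7, 44.4 and 45.1 in shTRIB3-1 and 48.6, 49.9 and 49.8 in shTRIB3-2. It did not pass the test with shTRIB3-1 (log2 fold change 0.08, adjusted p = 0.22, limma; 0.16 and 0.033 under median centring) and rose by 0.23 with shTRIB3-2. MAP1LC3A was near absent, with 0 to 4 fragments in every library, and was not tested.

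Summed over the family, the level was 227 ± 2.64 FPKM with the control hairpin, 310 ± 7.58 with shTRIB3-1 and 291 ± 5.91 with shTRIB3-2 (SD over 3 libraries). Within that sum, GABARAPL1 made up 7.41% ± 0.22 in shCtrl, 10.8% ± 0.3 in shTRIB3-1 and 10.5% ± 0.4 in shTRIB3-2, and MAP1LC3B 25.6% ± 0.5, 29.6% ± 0.91 and 28.2% ± 0.3. GABARAP took 48.3% ± 1.7 in shCtrl and less with both hairpins, 45.3% ± 0.98 and 44.2% ± 0.57. For each of these 3 genes the libraries of either hairpin lay outside the shCtrl range, and the exact permutation test (two-sided) gave p = 0.1, the smallest that 3 against 3 libraries allow, so the design could not reach a p of 0.05. The GABARAPL2 share was 18.7% ± 1.9, 14.4% ± 0.46 and 17% ± 0.13, with an exact permutation p of 0.1 for shTRIB3-1 and 0.4 for shTRIB3-2.

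**Figure D3:**
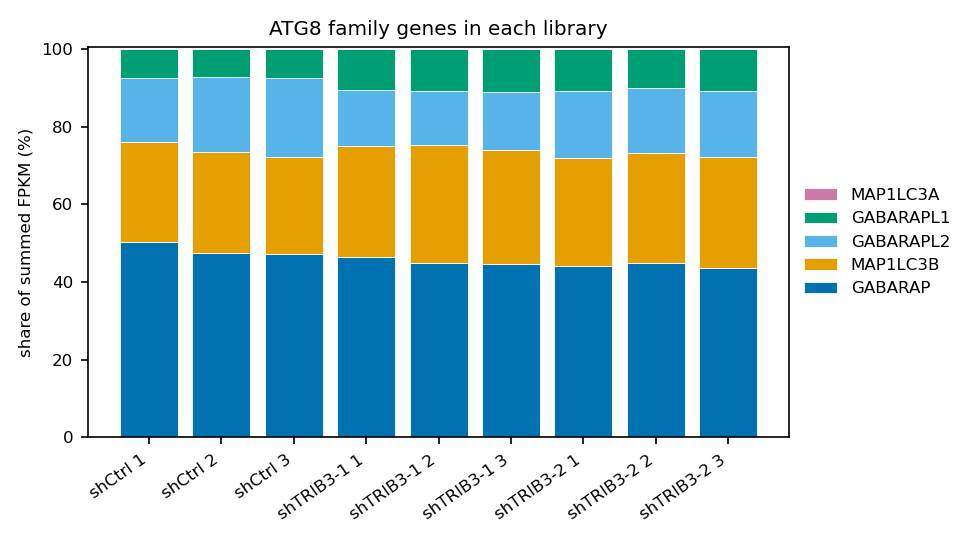
Share (%) of each ATG8 family gene in the summed FPKM of the family, with 1 bar for each of the 9 libraries. The GABARAPL1 segment is 7.16% to 7.57% in the shCtrl bars and 10.1% to 11.1% in the bars of both hairpins, while MAP1LC3A is too low to be seen.

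The conjugation genes attach ATG8 proteins to lipid. ATG16L1, which places the conjugating complex on the membrane, read 19.2, 19 and 18.7 FPKM in shCtrl, 41.3, 43.7 and 40.7 in shTRIB3-1 and 40.1, 40.1 and 41.7 in shTRIB3-2, and its log2 fold changes were 1.14 ± 0.035 and 1.10 ± 0.035 (SE, adjusted p = 5.62e-11 and 5.70e-11, limma). The hairpins overlapped each other and lay well clear of the controls. Its partners in the complex rose less. ATG12 read 11.5, 12.3 and 11.3 FPKM in shCtrl, 16.1, 17.3 and 17.4 in shTRIB3-1 and 16, 16.1 and 16.8 in shTRIB3-2 (log2 fold changes 0.53 and 0.48), and ATG5, to which ATG12 is joined, rose by 0.44 and 0.46. Of the enzymes that carry the proteins, 1 fell, 1 did not pass and 1 was too low to test. ATG7, the E1-like enzyme of both systems, fell by 0.25 and 0.27 on the log2 scale from 1.5 ± 0.0661 FPKM (SD, n = 3), but both calls hung on single libraries. With shTRIB3-1 the ATG7 call was lost without shCtrl replicate 1, shCtrl replicate 3, shTRIB3-1 replicate 2 or shTRIB3-1 replicate 3 (adjusted p = 0.0923, 0.0516, 0.0788 and 0.0509, limma) and under median centring (0.0926), and with shTRIB3-2 without shCtrl replicate 1 or shTRIB3-2 replicate 1 (0.0689 and 0.0537) and under quantile normalization (0.102). ATG3, the E2-like enzyme, had log2 fold changes of 0.05 and 0.12 and did not pass, though the second did without shCtrl replicate 1 (0.16, adjusted p = 0.031) and under median centring or quantile normalization (0.17 in each). ATG10, the E2-like enzyme for ATG12, was below the filter, at 0.48, 0.473 and 0.452 FPKM in shCtrl, 0.728, 0.513 and 0.654 in shTRIB3-1 and 1.04, 0.81 and 0.727 in shTRIB3-2, or 128 to 281 fragments, so all 6 hairpin libraries lay above the 3 controls, and the difference was not tested.

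The ATG4 proteases, which trim ATG8 proteins before conjugation and free them afterwards, split into 2 pairs. ATG4A read 4.2, 4.33 and 3.95 FPKM in shCtrl, 4.21, 5.74 and 5.52 in shTRIB3-1 and 5.95, 5.94 and 6.01 in shTRIB3-2. It rose by 0.51 with shTRIB3-2, and the rise of 0.29 with shTRIB3-1 hung on single libraries (adjusted p = 0.0556 without shCtrl replicate 3, 0.077 without shTRIB3-1 replicate 2, 0.0677 without shTRIB3-1 replicate 3, and 0.052 with all genes above 0 kept), with shTRIB3-1 replicate 1 inside the control range. ATG4B rose by 0.23 with shTRIB3-2 and had a log2 fold change of 0.08 with shTRIB3-1 that did not pass (adjusted p = 0.0587, limma, and 0.0363 without shTRIB3-2 replicate 2 or 0.0492 without shTRIB3-2 replicate 3), and that passed under median centring (0.16) and quantile normalization (0.10). ATG4C read 3.92, 4.08 and 3.19 FPKM in shCtrl, 2.73, 2.64 and 3.04 in shTRIB3-1 and 2.71, 1.99 and 2.45 in shTRIB3-2, with no overlap between either hairpin and the control, and fell by 0.39 and 0.63 on the log2 scale. ATG4D fell by 0.39 and 0.20.

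In the initiation complex, the kinase ULK1 read 5.37, 5.07 and 5.5 FPKM in shCtrl, 11.8, 11.3 and 13.3 in shTRIB3-1 and 10.3, 9.39 and 11.1 in shTRIB3-2, more than any control library in each of the 6. Its log2 fold change was 1.17 ± 0.071 with shTRIB3-1 and 0.93 ± 0.071 with shTRIB3-2 (SE), so it crossed the threshold of 1 with 1 hairpin alone. RB1CC1, the FIP200 scaffold of the complex, read 12.9, 13.2 and 13.5 FPKM in shCtrl, 16.7, 18.5 and 17.2 in shTRIB3-1 and 19.3, 19 and 19.4 in shTRIB3-2, rising by 0.40 and 0.54. ATG101 read 18.6, 19.7 and 22.2 FPKM in shCtrl, 24, 26.3 and 27.1 in shTRIB3-1 and 31.2, 27.4 and 28.1 in shTRIB3-2, rising by 0.36 and 0.52. ATG13, the adaptor that ATG101 stabilizes, fell by 0.14 and 0.21, the first not past the test under median centring (-0.06, adjusted p = 0.179, limma). ULK2, the second kinase of the pair, held 0 to 2 fragments in every library, so ULK1 was in practice the measured kinase.

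In the lipid kinase complex 3 of 5 members fell with both hairpins, where 41.5% and 40.5% of all genes fell, so the count alone says little about the complex. The catalytic subunit PIK3C3 fell from 3.11 ± 0.0386 FPKM in shCtrl to 2.41 ± 0.15 and 2.37 ± 0.0612, its regulatory subunit PIK3R4 from 6.02 ± 0.114 to 5.45 ± 0.158 and 4.54 ± 0.188, and the scaffold BECN1 from 60.8 ± 0.698 to 46.8 ± 2.08 and 50.7 ± 2.52 (SD, n = 3 each). All 3 were lower in every hairpin library than in any control library, with log2 fold changes of -0.14 to -0.40. The share of all genes with such separation was not worked out, here or for the other members whose groups did not overlap. The PIK3R4 call with shTRIB3-1 was lost when shCtrl replicate 1, shCtrl replicate 2, shTRIB3-1 replicate 1 or shTRIB3-1 replicate 2 was left out (adjusted p = 0.066 to 0.0861, limma), and under median centring (0.247) and quantile normalization (0.184). The subunits that direct the complex went the other way. ATG14, which sends it to the forming autophagosome, rose by 0.34 and 0.32, and UVRAG, which sends it to endosomes, rose by 0.33 with shTRIB3-1 and did not pass with shTRIB3-2 (0.14, adjusted p = 0.0896, limma), where it passed under median centring (0.20) and quantile normalization (0.22).

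Membrane supply genes, which bring lipid to the growing structure, showed modest rises. WIPI1, which binds the lipid that PIK3C3 makes, read 12.3, 12.6 and 11.7 FPKM in shCtrl, 14, 14.6 and 15.5 in shTRIB3-1 and 19.3, 17.6 and 19 in shTRIB3-2, so the 3 groups were separate and the log2 fold changes were 0.27 and 0.61. Its paralog WIPI2 did not pass with either hairpin (0.11 and -0.07), although with shTRIB3-1 it passed under median centring (0.19), under quantile normalization (0.16), with voom on the recovered fragments (0.11) and without shCtrl replicate 3 or shTRIB3-1 replicate 3 (0.15 in each). The lipid transfer protein ATG2A read 6.11, 6.35 and 6.64 FPKM in shCtrl, 8.5, 8.48 and 8.07 in shTRIB3-1 and 8.86, 8.77 and 9.23 in shTRIB3-2, rising by 0.39 and 0.49, and its paralog ATG2B rose by 0.24 and 0.32. ATG9A, the scramblase of the vesicles that seed the membrane, rose by 0.14 with shTRIB3-1, a call lost when values were rescaled to TPM (0.08, adjusted p = 0.059, limma), and had a log2 fold change of 0.05 with shTRIB3-2 that did not pass. An exon overlap of 38.8% with another gene on the same strand limits the ATG9A value. Antisense genes overlap 28.1% of the exon bases of WIPI1, the most of any member. For ATG14, ATG101, ATG7 and BECN1 the antisense overlap is 17.1% to 20.8%. As the strand setting of the counting is not stated, these levels are uncertain too.

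Among the lysosomal members, the cysteine proteases CTSL and CTSB rose most. CTSL read 27.4, 27.8 and 27.8 FPKM in shCtrl, 65.6, 70.1 and 68.3 in shTRIB3-1 and 62.8, 65.9 and 59.3 in shTRIB3-2, with log2 fold changes of 1.30 ± 0.040 and 1.18 ± 0.040 (SE, adjusted p = 5.91e-11 and 9.23e-11, limma). CTSB, which started from a far higher level, read 168, 160 and 157 FPKM in shCtrl, 258, 266 and 252 in shTRIB3-1 and 237, 244 and 239 in shTRIB3-2, with log2 fold changes of 0.68 and 0.57. Neither gene overlapped between hairpin and control libraries. LAMP1, an abundant glycoprotein of the lysosomal membrane and the member with 5 E-boxes in its window, read 131, 129 and 126 FPKM in shCtrl, 179, 188 and 185 in shTRIB3-1 and 160, 160 and 158 in shTRIB3-2, rising by 0.51 and 0.30.

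Its relative LAMP2, needed for fusion and for chaperone-mediated autophagy, rose by 0.12 with shTRIB3-1, a call lost when values were rescaled to TPM (0.06, adjusted p = 0.134, limma), and had a log2 fold change of 0.00 with shTRIB3-2. The aspartic protease CTSD, the most abundant member in the control cells at 400 ± 14.5 FPKM (SD, n = 3) and a second lysosomal member with an E-box, had log2 fold changes of 0.09 and 0.08. The first passed the test and the second did not (adjusted p = 0.0331 and 0.0674, limma), and the first was lost without shCtrl replicate 2 or 3 or shTRIB3-1 replicate 1 or 3 (adjusted p = 0.0853 to 0.137) and under 5 other settings, among them TPM scaling (0.04, adjusted p = 0.334) and quantile normalization (0.06, adjusted p = 0.267). The second passed without shCtrl replicate 1 (0.11, adjusted p = 0.0172) and under median centring (0.13), quantile normalization (0.28) and voom on the recovered fragments (0.08). Rises thus ranged widely within the same compartment, and CTSD shares 27.3% of its exon bases with another gene on the same strand and 23.4% with an antisense gene.

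None of the 3 control genes at the top of the process rose. MTOR read 22.1, 20.4 and 20.5 FPKM in shCtrl, 21.1, 21.3 and 20.7 in shTRIB3-1 and 22.9, 21.2 and 22.5 in shTRIB3-2, with overlapping ranges and log2 fold changes of 0.00 (95% interval -0.09 to 0.09) and 0.08 (-0.01 to 0.17) that did not pass, the second passing without shCtrl replicate 1 (0.12, adjusted p = 0.0218, limma), without shTRIB3-2 replicate 2 (0.11, adjusted p = 0.0367), under median centring (0.13) and with voom on the recovered fragments (0.08). RPTOR, which recruits substrates to MTORC1, fell by 0.36 with shTRIB3-2 and did not pass with shTRIB3-1 (-0.08), where it passed when values were rescaled to TPM (-0.14, adjusted p = 0.0392, limma). TFEB read 2.38, 2.57 and 2.29 FPKM in shCtrl, 2.15, 2.06 and 2.05 in shTRIB3-1 and 2.32, 2.4 and 2.67 in shTRIB3-2. It fell by 0.20 with shTRIB3-1, a call lost under median centring (-0.12, adjusted p = 0.168), quantile normalization (0.138), voom on the recovered fragments (0.0753) and the filter that kept all genes above 0 (0.0628), and when shCtrl replicate 1, shCtrl replicate 2 or any library of shTRIB3-1 was left out (adjusted p = 0.0525 to 0.152), and it had a log2 fold change of 0.03 with shTRIB3-2. The activity of MTORC1 and the location of TFEB are set on the proteins and were not measured by these data.

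The hairpins differed from each other for many members, by small amounts. Compared directly, 8 members were higher and 14 lower with shTRIB3-2 than with shTRIB3-1 and 18 did not pass, against 25.1% and 20.7% of all genes. No member passed a log2 fold change of 1 in either direction, where 0.284% of all genes were called higher and 1.79% lower. The split turned to 10 higher and 8 lower when values were rescaled to TPM, and was 6 and 17 under median centring. Differences that stood out were WIPI1 at 0.34, TAX1BP1 at -0.29, RPTOR at -0.28 and PIK3R4 at -0.26. By the test, every tested ATG8 member but GABARAPL2, and every lysosomal member but CTSD, was lower with shTRIB3-2, the hairpin that left less TRIB3. MAP1LC3B and LAMP1 stayed lower in every alternative (-0.19 to -0.12 and -0.24 to -0.17). As TPM, the calls for GABARAPL1, LAMP2, CTSB and CTSL were lost (adjusted p = 0.0933, 0.0722, 0.0717 and 0.0823, limma). Those for GABARAP, CTSB and CTSL were also lost without single libraries, such as shTRIB3-2 replicate 3 (0.0516, 0.059 and 0.134). A link to the TRIB3 level was not tested. Under quantile normalization the direction turned for SQSTM1, from -0.15 to 0.11, for CTSB, from -0.11 to 0.01, and for CTSD, from -0.02 to 0.22. Without shTRIB3-1 replicate 1 or without shTRIB3-2 replicate 3 the number higher was 4, and without shTRIB3-2 replicate 1 the number lower was 9.

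**Figure D4:**
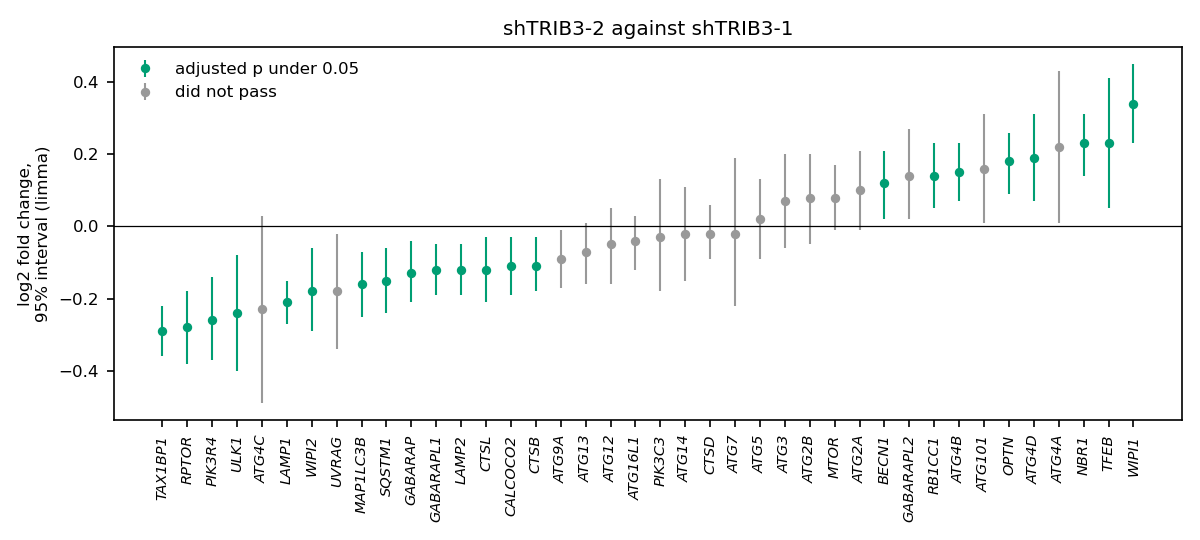
Log2 fold change of FPKM + 0.1 of shTRIB3-2 against shTRIB3-1 for the 40 tested members, ordered by value, with 95% intervals from limma (n = 3 libraries per group) and green for an adjusted p under 0.05. Values run from -0.29 for TAX1BP1 to 0.34 for WIPI1, with 14 green points below 0 and 8 above.

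In the control cells the members spanned a wide range of level. By FPKM in shCtrl, CTSD (400 ± 14.5), SQSTM1 (250 ± 12.1), CTSB (162 ± 5.67), LAMP1 (129 ± 2.59) and GABARAP (110 ± 4.07) came first, each above the next by more than their spread (SD, n = 3). Below them TAX1BP1 (58.2 ± 1.89) and MAP1LC3B (58.1 ± 1.79), ATG9A (42.5 ± 0.752) and GABARAPL2 (42.4 ± 4.29), and CTSL (27.6 ± 0.217) and CALCOCO2 (27.4 ± 0.62) were neighbours that did not differ beyond their spread. The kinases ULK1 (5.32 ± 0.221) and PIK3C3 (3.11 ± 0.0386) and the E1-like enzyme ATG7 (1.5 ± 0.0661) were at the low end. The kinase MTOR was higher, at 21 ± 0.971. Among tested members, counts were lowest for ATG4C (204 to 436 fragments) and TFEB (257 to 342). They were also low for ATG7 (377 to 522), ATG4A (415 to 618), ATG4D (435 to 652) and UVRAG (787 to 1024). The SE of the log2 fold change was 0.119 for ATG4C, 0.0809 for TFEB and 0.0935 for ATG7. It was 0.0963 for ATG4A, 0.0556 for ATG4D and 0.0729 for UVRAG. For SQSTM1 and CTSD, with at least 27937 fragments in every library, the SE was 0.0431 and 0.0362. The CTSD result still changed when single libraries were left out, as given above.

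A wider list of pathway genes, written from general knowledge of lysosomal and autophagy genes other than the members, gave the setting. Of 155 found in the table, 143 were tested. With shTRIB3-1, 83 rose, 29 fell and 31 did not pass, and with shTRIB3-2, 83 rose, 32 fell and 28 did not pass, again with the same controls in both. Their median log2 fold changes were 0.23 and 0.19. Called genes were 7 higher and 2 lower with shTRIB3-1 and 8 higher and 3 lower with shTRIB3-2, which is 4.9% and 5.59% higher, near the 5.39% and 6.06% of all genes, and 1.4% and 2.1% lower, below the 6.1% and 6.27% of all genes.

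The groups are read against all genes tested, of which 32.9% rose and 41.5% fell with shTRIB3-1 and 35.4% and 40.5% with shTRIB3-2. Of 37 lysosomal enzymes, 27 rose and 4 fell with shTRIB3-1 (73% and 10.8%), and 25 rose and 8 fell with shTRIB3-2 (67.6% and 21.6%). Of 18 subunits of the V-ATPase, the proton pump that acidifies the lysosome, 12 rose and 4 fell with each hairpin (66.7% and 22.2%), and of 19 lysosomal membrane genes 13 and 12 rose (68.4% and 63.2%). Other autophagy machinery rose in 14 and 15 of 20 cases (70% and 75%). Of 14 other selective receptors, 2 rose and 6 fell with shTRIB3-1 (14.3% and 42.9%), the share falling being that of all genes, and 4 rose and 8 fell with shTRIB3-2 (28.6% and 57.1%). Genes of MTORC1 and amino acid sensing were nearer to the shares of all genes, with 13 rising and 10 falling of 32 with shTRIB3-1 (40.6% and 31.2%) and 14 and 10 with shTRIB3-2 (43.8% and 31.2%). Among the relatives of TFEB, TFE3 rose by 0.50 and 0.60 from 17.1 to 19.7 FPKM in shCtrl, and was far more abundant than TFEB.

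**Figure D5:**
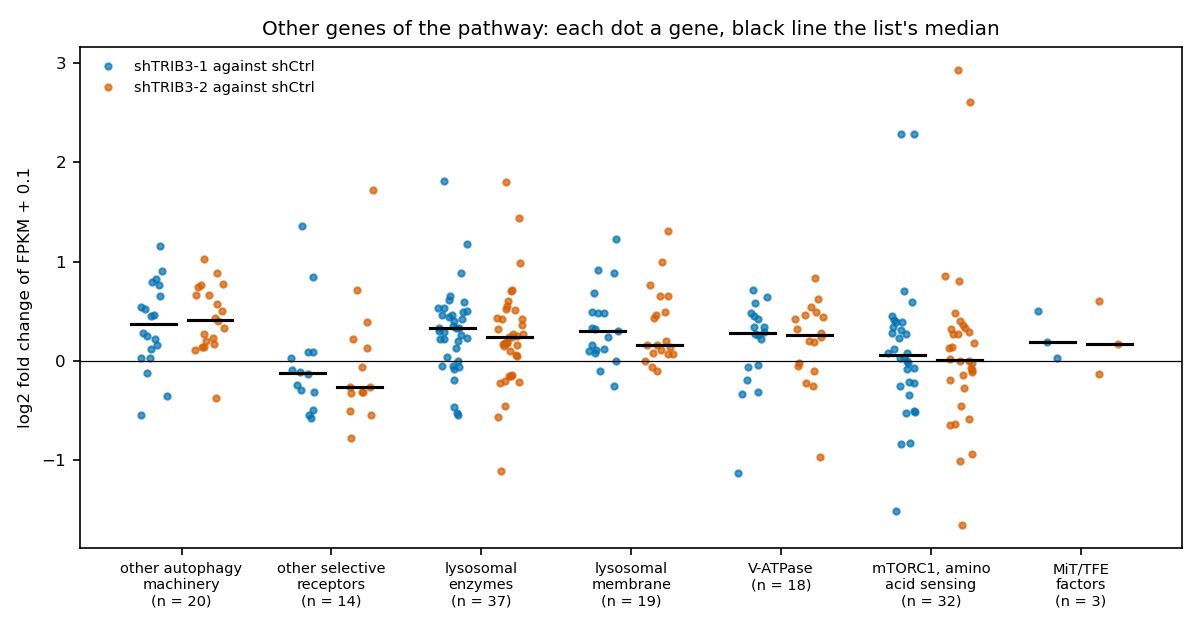
Log2 fold change of FPKM + 0.1 against shCtrl for the tested genes of the wider pathway list, by group, with shTRIB3-1 in blue, shTRIB3-2 in orange and the group's median as a black line. Medians lie above 0 for the lysosomal enzymes (0.33 and 0.24), the lysosomal membrane (0.30 and 0.16) and the V-ATPase (0.28 and 0.26), and below 0 for the other selective receptors (-0.12 and -0.26).

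Of the wider list, 7 genes were called with both hairpins, each in 1 direction. The share of all genes called the same way with both hairpins was not worked out, so this count says nothing about the list as a whole. Of those in nutrient sensing, RRAGD, a Rag GTPase that recruits MTORC1 to the lysosome, went from 0.255, 0.162 and 0.238 FPKM in shCtrl to 1.29, 1.46 and 1.56 in shTRIB3-1 and 2.03, 1.77 and 1.71 in shTRIB3-2, and CASTOR1, the arginine sensor upstream of it, from 0.521, 0.312 and 0.632 to 2.65, 2.33 and 3.08 and to 4.81, 3.64 and 4.46. RRAGD rose by 2.28 and 2.61 and CASTOR1 by 2.28 and 2.93 on the log2 scale, from a very low level. DEPTOR, an inhibitor bound to the MTOR kinase, fell from 3.77, 3.92 and 4.02 FPKM to 1.4, 1.17 and 1.35 and to 1.39, 0.995 and 1.18, with log2 fold changes of -1.51 and -1.65. Of the lysosomal genes, CD63, a tetraspanin of late endosomes, rose from 65.2, 67.8 and 67.8 FPKM to 150, 168 and 153 and to 161, 175 and 164, and IDS, which degrades heparan and dermatan sulfate, rose from 6.2, 5.51 and 5.44 to 21.1, 20.2 and 19.5 and to 15.4, 15.4 and 16.3. The protease CTSK (1.18 and 1.80) and the glycogen receptor STBD1 (1.36 and 1.72) rose from below 1 FPKM in every control library, where the added 0.1 understates a fold change. RRAGD, CASTOR1, CTSK and STBD1 thus passed the filter on low values only through hairpin libraries. A fall with both hairpins could not have been called for them, so their direction says nothing about the list.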

How the data were processed

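RNA-seq of 9 HepG2 libraries was used, 3 per group. The submitters' processing notes name GRCh38, HTSeq and R 3.2.0, and the study's methods name STAR for alignment. FPKM values per gene and library were computed and deposited by the authors; the annotation release and the strand setting are not given in the sources used here. FPKM does not correct for composition, so a few abundant transcripts can shift all others. Labels and methods name different library kits.

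Genes with FPKM of at least 1 in at least 3 libraries were tested as log2(FPKM + 0.1) with limma 3.58.1 (R 4.3.3), 3 group means in 1 fit, empirical Bayes with a mean-variance trend, two-sided, Benjamini-Hochberg over 11265 genes. A gene passed at adjusted p under 0.05 and was called with an absolute log2 fold change above 1. Fold changes on this scale understate the change of low genes. Fragments were worked out from the FPKM steps, and 100% of 172769 values came out within 0.02 of a whole number; counting error only is covered by them. Values in every library are printed for members called in a comparison, for SQSTM1, TFEB, MTOR and the ATG8 family, and for the 10 others with the largest change, and of the wider list for genes called the same way with both hairpins, at most 12. The members and lists were chosen with earlier results of these data known. Exon overlaps are from GENCODE 44 and promoters from RefSeq (GRCh38.p14). Alternatives were another pseudocount, other filters, 3 scalings, voom on the recovered fragments, other fits, a replicate block and leaving out each library. A gene of the wider list is counted in its group but not reported here by name.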

Additional observations from a re-analysis of the deposited data

Results flagged for a closer look

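No member differed in direction between the hairpins with both changes past the test. In the wider pathway list, 4 of the genes reported here did: each rose with 1 hairpin and fell with the other against the shared shCtrl libraries. For each, the direct test of shTRIB3-2 against shTRIB3-1 (limma, adjusted p under 0.05) also passed. The share of all genes that did so was not worked out, so these counts say nothing about the members or the list as a whole. GLA, the alpha-galactosidase of Fabry disease, read 30.6, 32.5 and 30.4 FPKM in shCtrl, 44.4, 44.9 and 45.5 in shTRIB3-1 and 27.3, 29.2 and 27.8 in shTRIB3-2, a log2 difference between hairpins of -0.68. CTSA, the protective protein of sialidase and beta-galactosidase, differed by -0.38. SH3GLB1, a membrane-bending partner of the BECN1 complex, differed by 0.38 and ABCA2, a lipid transporter of lysosomes, by 0.45.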

How the results depend on the processing

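Outside leave-one-out, 1130 gene-level results, those of TRIB3 included, kept their side of the adjusted p threshold, 42 lost it and 37 gained it. Direction was compared only where the main or the alternative fit passed, so turns of sign among results that passed in neither are not counted. By that rule 3 reversed, all of shTRIB3-2 against shTRIB3-1 under quantile normalization: SQSTM1 0.11 (adjusted p 0.152, limma), CTSB 0.01 (0.887) and CTSD 0.22 (0.00217). At FPKM of at least 5 fewer members were tested. That filter dropped ATG7, PIK3C3, ATG4C and TFEB, which fell with shTRIB3-1, and UVRAG and ATG2B, which rose. With shTRIB3-1, 5 members fell in that smaller set, and 5 fell under median centring, where no member was dropped, against 9. The median with shTRIB3-1 was 0.35 and 0.36 in these settings and 0.23 as TPM. With shTRIB3-2 the median was 0.24 with a pseudocount of 1, 0.23 with all genes above 0, 0.34 at FPKM of at least 5, 0.32 with centring, 0.29 with quantile normalization and 0.24 as TPM. As TPM, 8 members were lower with shTRIB3-2 than with shTRIB3-1. With fragments in place of FPKM, the GABARAPL1 share differed from shCtrl by 4.21 and 4.12 points, against 3.35 and 3.14.

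Leaving out 1 library gave shTRIB3-1 counts of 4 to 5 called higher and 6 to 9 falling (6 without shCtrl replicate 1 or shTRIB3-1 replicate 2), and a shTRIB3-2 median of 0.27 to 0.29. Between hairpins, 4 to 10 members were higher (4 without shTRIB3-1 replicate 1 or shTRIB3-2 replicate 3) and 9 to 14 lower (9 without shTRIB3-2 replicate 1). Correlations between groups were weak for libraries of the same replicate number (-0.0742 to 0.0933) and for those of unlike number (-0.0756 to 0.0479). Whether a replicate number marks a shared batch was not tested. With the replicate block, 25 members rose and 8 fell with shTRIB3-1, 24 and 9 with shTRIB3-2, and 8 and 15 between hairpins. The block ended the TFEB call with shTRIB3-1 (adjusted p 0.0609, limma) and made the CTSD difference with shTRIB3-2 pass (0.0355).

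Voom on the recovered fragments called 5 members higher with shTRIB3-1 and 3 with shTRIB3-2. Precision was limited by 3 libraries per group and, for genes such as TFEB and ATG7, by few fragments.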
